A study of Oryza sativa Japonica Group with 17 samples.

Results

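Abundant 24-nt small RNA positions of wild-type rice leaves that were not listed in the DRM2 mutant osdrm2 numbered 1401. Each was a place in the genome with at least 10 identical alignments in the wild-type list (Cr-DJ) and no osdrm2 alignment overlapping it by even 1 bp. They came out of 2270 Cr-DJ positions with at least 10 reads and out of 11243 listed Cr-DJ positions in all. They were thus chosen by the read numbers of both lists, and the unlisted share of 61.7% and the reads at these places are a description that was not tested. Among all listed Cr-DJ positions 72.2% were unlisted in osdrm2. They are called unlisted positions here, and the other 869 abundant positions, met by at least 1 osdrm2 alignment, are called overlapped positions.

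The study covers 17 samples of rice (Oryza sativa) leaves, taken from seedlings 12 days old, and 4 of them are used here. The small RNA libraries came from osdrm2 in the variety DongJin and from Cr-DJ, the DongJin wild type, whose mutant label reads DJ. H3K27me3 was profiled in Cr-DJ. The H3K9me2 sample is labelled ZH11, another variety, while the submitters' list of files assigns the H3K9me2 peaks to Cr-DJ, and the sample label is followed here because the peak file's header also names ZH. There was 1 library of each kind, so no value below has a replicate check, and intervals are Wilson 95% intervals that cover counting error only. Intervals on shares of reads treat identical reads at 1 position as independent, so they are too narrow. The labels do not say whether seedlings were pooled or how the osdrm2 allele was made. The lists carry no gene names, so neither the leaf origin nor the osdrm2 genotype could be checked against marker genes.

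Plants silence transposons and other sequences through RNA-directed DNA methylation. RNA polymerase IV and the RNA-dependent RNA polymerase RDR2 make double-stranded RNA, Dicer-like 3 cuts it into 24-nt small RNAs, and Argonaute proteins of the AGO4 group carry these to matching chromatin, where the methyltransferase DRM2 methylates cytosines in every sequence context. DRM2 thus acts after the small RNA is made. In Arabidopsis, some 24-nt small RNA loci nevertheless lose their small RNAs when DRM2 is missing, and recruitment of RNA polymerase IV there depends in part on silent chromatin. In rice, 24-nt small RNAs and CHH methylation lie largely on short transposons near genes. H3K27me3 is the mark of Polycomb repression of genes, and H3K9me2 is a mark of silent heterochromatin.

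The osdrm2 list held 155764 alignments at 20576 positions and the Cr-DJ list 106418 alignments at 11243 positions. No listed position had fewer than 4 reads in either list, so an unlisted position may have had up to 3 reads in osdrm2, and no fold change is given. In whole leaves, fewer cells making a small RNA and less of it per cell cannot be told apart. How deeply each library was sequenced is unknown, since the lists hold only part of it. Of the unlisted positions, 1395 were 24 nt long and 6 were 22 or 23 nt long. Coordinates are those of the files, with a genome build that no source used here names, so neither gene annotation nor genome sequence was used.

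The unlisted positions held 27706 Cr-DJ reads, which was 26.0% of all listed Cr-DJ reads (25.8 to 26.3%) and 46.9% of the reads at abundant positions. They were mostly of moderate abundance. The median was 14 reads per unlisted position (quartiles 11 and 20) and 16 per overlapped position (quartiles 12 and 26). The upper ends of the groups lay far apart. The most abundant unlisted position had 870 Cr-DJ reads and the most abundant overlapped one 6379. At least 100 reads were found at 7 unlisted and 35 overlapped positions. At the limits of the rule, 221 unlisted positions had exactly 10 reads, out of 310 positions with that number, and 295 of 417 positions with 9 reads were likewise without an osdrm2 alignment. On the other side, 62 overlapped positions were met by exactly 4 osdrm2 reads.

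The share of Cr-DJ positions unlisted in osdrm2 was lower where more Cr-DJ reads lay. It was 79.3% of positions with 4 reads (78.0 to 80.5%), 65.9% at 10 to 14 reads (735 of 1115) and 61.9% at 15 to 19 reads (283 of 457). It was 61.0% at 20 to 29 reads, 54.7% at 30 to 49 and 49.5% at 50 to 99 (48 of 97, 39.8 to 59.3%). At 100 reads or more it was 16.7% (7 of 42, 8.32 to 30.6%). Between 6 and 9 reads the shares lay at 68.7 to 70.8% with intervals that overlapped each other. Where an abundant position was overlapped at all, it was mostly by the identical alignment. This held for 809 of the 869 overlapped positions (93.1%), with a median of 17 reads in osdrm2 and 16 in Cr-DJ. These medians are raw reads, from 155764 listed alignments in osdrm2 and 106418 in Cr-DJ. They cover only positions listed in both, so they do not show equal levels. Turned round, 1181 of 2574 osdrm2 positions with at least 10 reads (45.9%) had no overlapping Cr-DJ alignment, and of all listed osdrm2 positions 82.9% had none.

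**Figure D1:**
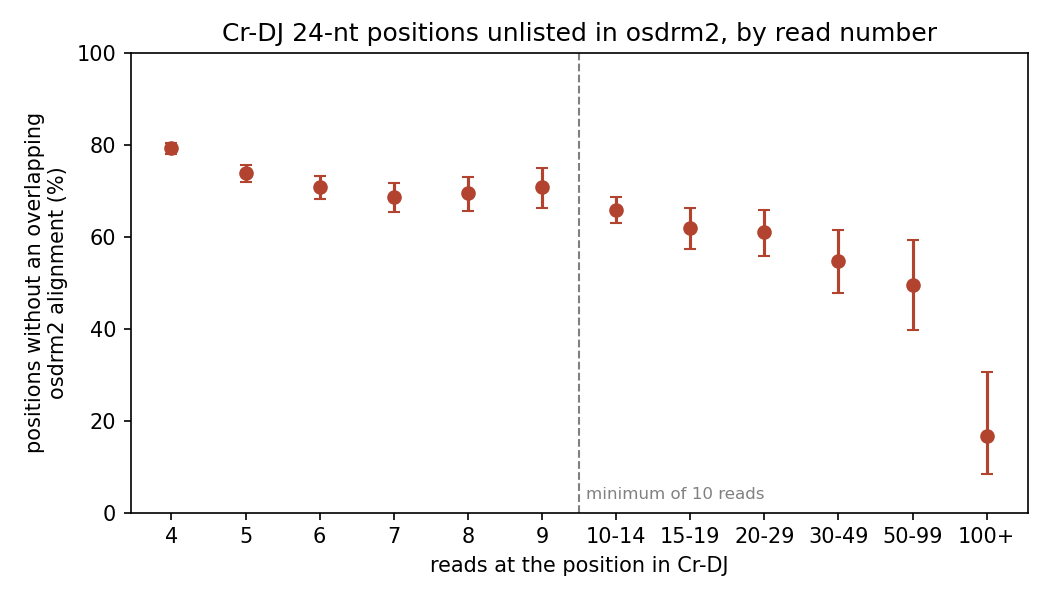
Percent of Cr-DJ 24-nt positions without an overlapping osdrm2 alignment (vertical axis) by the number of Cr-DJ reads at the position (horizontal axis), with Wilson 95% intervals as bars and the minimum of 10 reads as a dashed line. The share is 79.3% at 4 reads, between 49.5 and 65.9% from 10 to 99 reads and 16.7% at 100 or more.

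The unlisted positions formed very short groups or stood without another unlisted position nearby. Chained where neighbours were at most 500 bp apart, they formed 1213 clusters, and 1068 of these were a single position. A further 112 clusters held 2 positions, 27 held 3, 3 held 4, 2 held 5 and 1 held 6. Thus 76.2% of unlisted positions (73.9 to 78.4%) stood alone, and 61.8% of overlapped positions did (58.5 to 65.0%), whose largest cluster had 25 positions. Neighbours here are positions of the same group. Counting any listed Cr-DJ position within 500 bp, 53.7% of unlisted (51.1 to 56.3%) and 58.6% of overlapped positions (55.3 to 61.8%) had a neighbour, so the groups lay close together on this count and their intervals overlapped. The 145 clusters of several unlisted positions had a median span of 30 bp and reached 362 bp at most, and 76.6% of them (111 of 145) spanned no more than 48 bp. For overlapped positions the longest cluster was 1311 bp and 62.1% (64 of 103) spanned no more than 48 bp.

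Inside the clusters the alignments were staggered by a few bases over one another. Of 188 neighbouring pairs of unlisted positions, 154 (81.9%, 75.8 to 86.8%) had starts less than 24 bp apart and so overlapped, with 57 pairs 1 bp apart, 26 pairs 2 bp apart and 16 pairs 3 bp apart. Among overlapped positions 156 of 229 pairs (68.1%, 61.8 to 73.8%) overlapped, 62 of them with starts 1 bp apart. End-to-end spacing, the pattern known from phased small RNAs, was counted but not compared with a rate by chance. No neighbouring pair of unlisted positions had starts 24 bp apart. Of the 46 pairs at least 24 bp apart in a cluster, 1 had a distance divisible by 24 and 2 a distance divisible by 21. For overlapped positions these were 34 and 31 of 609 pairs. Another listed Cr-DJ start, weak ones included, lay 24 bp away at 7 of 1401 unlisted positions (0.5%, 0.242 to 1.03%). It did so at 21 of 869 overlapped positions (2.42%, 1.59 to 3.67%). Counting weaker Cr-DJ positions too, 43.0% of unlisted positions (602 of 1401) were overlapped by another listed Cr-DJ position, and 47.4% of overlapped positions (412 of 869) were.

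The largest cluster stood on chromosome 1 from 37788228 to 37788299, a span of 72 bp. Its 5 positions are listed at 0 in osdrm2 and had 12, 20, 353, 870 and 20 reads in Cr-DJ, in the order of their starts. The positions with 870 and 353 reads, the 2 most abundant of all unlisted positions, started 1 bp apart at 37788275 and 37788274. In the window of 10 kb around it osdrm2 had 4 reads and Cr-DJ 1291, of which 1275 lay at the 5 positions. The nearest osdrm2 alignment was 3200 bp away.

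The next clusters were several times smaller. On chromosome 5 from 21554092 to 21554115 a single position was listed at 0 in osdrm2 and had 201 reads in Cr-DJ, with no other listed read within the window and the nearest osdrm2 alignment 14015 bp away. Another cluster, on chromosome 5 from 28826385 to 28826440, had 3 positions with 152, 10 and 28 Cr-DJ reads, and the window held 4 osdrm2 and 210 Cr-DJ reads. Most reads of these clusters lay at 1 strong position each, which was not so in the next one. The cluster with the most positions, on chromosome 2 from 25353056 to 25353088, packed 6 positions into 33 bp, with 32, 31, 46, 17, 51 and 11 reads in Cr-DJ. All 6 are listed at 0 in osdrm2, which had no read in the 10 kb around them.

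Single strong positions and staggered groups alternated further down. On chromosome 5 from 4416828 to 4416851 a lone position had 176 Cr-DJ reads. On chromosome 6 from 2743378 to 2743417, 129 and 15 reads lay at 2 positions, and the nearest osdrm2 alignment was 48597 bp away. On chromosome 3 from 32388860 to 32388884, 112 and 30 reads lay at starts 1 bp apart. None of these places had an osdrm2 read within the 10 kb window. On chromosome 8, 3 positions from 272558 to 272724 had 42, 48 and 45 reads, the last of them over 100 bp from the others, and 4 positions from 24547206 to 24547234 had 21, 32, 19 and 54 reads. On chromosome 6, 5 positions from 23880197 to 23880243 had 11, 42, 20, 35 and 16 reads, and there osdrm2 had 4 reads in the window against 168 in Cr-DJ. The last clusters of the 12 were both on chromosome 1, with 17, 11 and 84 reads from 39321302 to 39321332 and with 27, 41 and 33 reads from 611224 to 611251.

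Together the 12 clusters held 2914 reads, 10.5% of the reads at unlisted positions, so most of the group was spread thinly over the other clusters. Of the 12 windows, 9 had no listed osdrm2 read and 3 had 4 reads each, the smallest number the list holds. The other unlisted positions among the 10 most abundant lay on chromosome 6 from 24773984 (87 reads) and from 9083329 (86 reads) and on the unanchored sequence Sy from 234475 (87 reads). The position on Sy had the nearest osdrm2 alignment of these 10, 447 bp away.

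**Figure D2:**
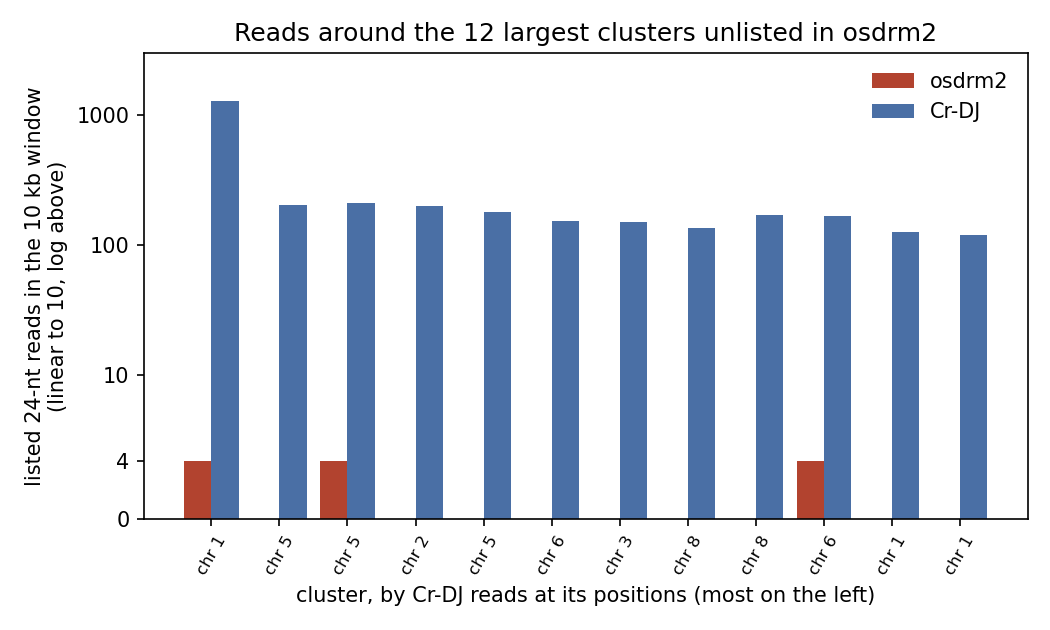
Listed 24-nt reads of osdrm2 (left bar) and Cr-DJ (right bar) in the 10 kb window around each of the 12 clusters of unlisted positions with the most Cr-DJ reads, on an axis that is linear up to 10 reads and logarithmic above. The osdrm2 bars stand at 0 in 9 windows and at 4 in 3, and the Cr-DJ bars lie between 120 and 1291.

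Most unlisted positions also had no listed osdrm2 alignment in their surroundings. The osdrm2 list is sparse, with 1 position per 18.2 kb of chromosome on average, so a lack of alignments nearby is common anywhere and is a description here. No osdrm2 alignment lay within 100 bp of 1371 of the 1401 unlisted positions (97.9%), within 1 kb of 1217 (86.9%, 85.0 to 88.5%), within 5 kb of 808 (57.7%) or within 10 kb of 542 (38.7%). The median distance to the nearest osdrm2 position was 6909 bp (quartiles 2233 and 17008 bp) and the longest 106695 bp. Of the clusters, 707 of 1213 (58.3%, 55.5 to 61.0%) had no osdrm2 read in the 10 kb window. Summed over all windows, with shared stretches counted once, osdrm2 had 6287 reads and Cr-DJ 36399. Per 1000000 listed reads these were 40362 in osdrm2 and 342038 in Cr-DJ, so osdrm2 made up 10.6% of the scaled reads (10.3 to 10.8%). The rule sets the direction of this difference.

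Reads next to the clusters, which the rule did not set directly, were closer in number between the lists. Leaving out alignments that overlap a cluster, the stretch within 1 kb of the centres held 14053 reads per 1000000 in osdrm2 (2189 reads) and 31874 in Cr-DJ (3392 reads). From 1 to 5 kb it held 27311 per 1000000 in osdrm2 (4254 reads) and 40322 in Cr-DJ (4291 reads). In the 250 bp on either side of the centre osdrm2 had 313 and 244 reads against 898 and 673 in Cr-DJ. The raw numbers from 1 to 5 kb were thus nearly equal before scaling. Per kb of distance, osdrm2 had 1094 reads within 1 kb and 532 from 1 to 5 kb, and Cr-DJ had 1696 within 1 kb and 536 from 1 to 5 kb. Summed over all clusters, the osdrm2 reads were therefore denser beside the clusters than farther out. This sum was unevenly spread. Only 184 of the 1401 unlisted positions had osdrm2 reads within 1 kb, with a median of 6 and a highest number of 440. A read near several clusters counts for each of them here, and osdrm2 alignments were excluded from the clusters by the rule but not beside them.

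**Figure D3:**
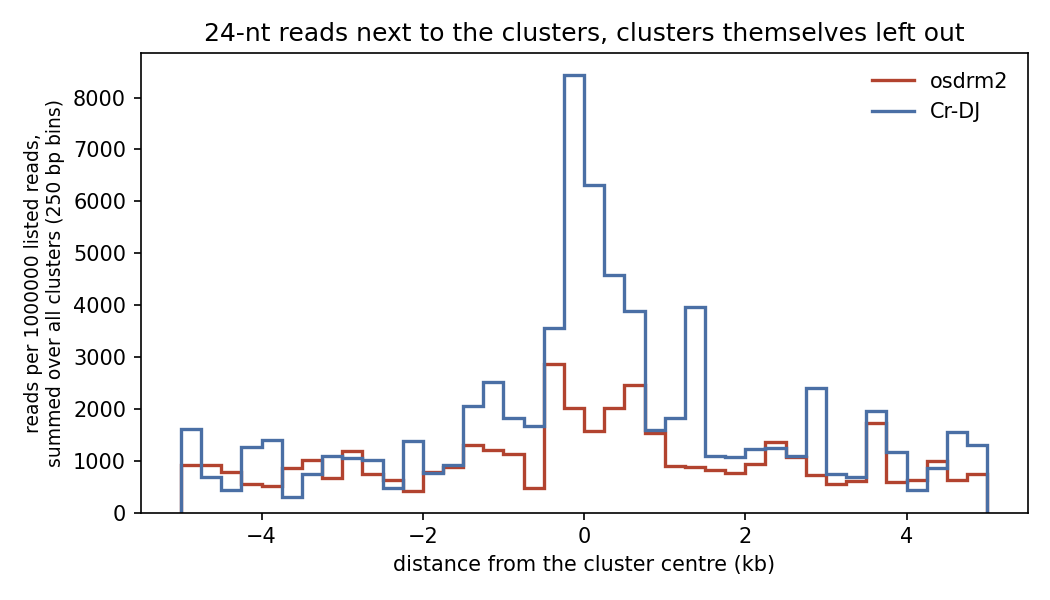
Reads per 1000000 listed reads in osdrm2 and in Cr-DJ, summed in bins of 250 bp over all 1213 clusters of unlisted positions, against the distance from the cluster centre in kb; alignments that overlap the cluster are left out. The Cr-DJ line reaches 8438 and 6324 in the bins beside the centre, where osdrm2 has 2009 and 1566, and beyond 2 kb the lines cross repeatedly.

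Places where both patterns met were few. An overlapped abundant position lay within 500 bp of 11 unlisted positions (0.785%). The overlapped positions are themselves sparse, with 640 clusters in the genome, and no rate by chance was worked out. The count therefore does not show that the groups avoid each other. At 184 unlisted positions osdrm2 had reads within 1 kb, with a median of 6 reads. The highest number was 440 osdrm2 reads at 30 positions, around a locus on chromosome 12 named after its values were seen. There the unlisted positions from 9356239 (13 reads) and from 9356248 (10 reads) lay 14 and 23 bp from the nearest osdrm2 alignment, and Cr-DJ had 878 reads within 1 kb. These positions are gaps inside a locus that both lists hold.

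Unlisted positions were rare in H3K9me2 heterochromatin. They met an H3K9me2 peak of ZH11 in 4 of 1401 cases (0.286%, 0.111 to 0.732%), and overlapped positions did in 48 of 869 (5.52%, 4.19 to 7.25%). H3K9me2 peaks covered 7.83% of the chromosomes. Of the 48 overlapped positions in H3K9me2 peaks, 31 lay on chromosome 7. Whether heterochromatin lies at the same places in both varieties was not tested. Counted by clusters, the shares were 4 of 1213 unlisted (0.330%, 0.128 to 0.845%) and 17 of 640 overlapped clusters (2.66%, 1.67 to 4.21%). With chromosome 7 left out they were 3 of 1287 unlisted positions (0.233%, 0.0793 to 0.683%) and 17 of 768 overlapped positions (2.21%, 1.39 to 3.52%). Of the 11 other numbered chromosomes, 3 held unlisted positions in such peaks and 8 held overlapped ones, and on chromosomes 3 and 6 the order was reversed, with 1 unlisted position and no overlapped one each. The marks were not used by the rule, but positions of one cluster are not independent, and with 1 library of each kind the difference between the groups has no test.

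The 4 unlisted positions in H3K9me2 peaks had 13 to 16 Cr-DJ reads, near the median of 14 of all unlisted positions. On chromosome 3 from 11560019 to 11560042 the position had 16 Cr-DJ reads and lay in a peak of 1342 bp with a fold enrichment of 2.52, and the nearest osdrm2 alignment was 993 bp away. On chromosome 6 from 11084335 to 11084358 it had 16 reads, in a peak of 1998 bp and 4.59-fold, with osdrm2 255 bp away. On chromosome 7 a position of 15 reads from 3239763 stuck out of a 3.71-fold peak by 1 bp. On chromosome 5 a position of 13 reads from 8701868 lay in a peak of 767 bp and 3.01-fold, with osdrm2 89 bp away. Folds and peak limits are the authors' values. None of the 383 unlisted positions with at least 20 reads met an H3K9me2 peak (0 of 383, 0 to 0.993%), whereas 26 of 315 overlapped positions of that abundance did (8.25%).

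H3K27me3 peaks of Cr-DJ held a larger share of unlisted than of overlapped positions. The unlisted share was near that of weaker Cr-DJ positions, most of which were also unlisted. Unlisted positions met a peak in 172 of 1401 cases (12.3%, 10.7 to 14.1%) and overlapped positions in 63 of 869 (7.25%, 5.71 to 9.17%), where the peaks covered 7.52% of the chromosomes. Of the 8973 Cr-DJ positions of 4 to 9 reads 11.5% did (10.9 to 12.2%), which lies within the unlisted interval. As 74.9% of these weaker positions were themselves unlisted in osdrm2, they cannot show which abundant group departs from the rest. By clusters it was 152 of 1213 unlisted (12.5%, 10.8 to 14.5%) and 48 of 640 overlapped (7.50%, 5.70 to 9.80%). The order was the same on 8 of 12 numbered chromosomes and reversed on chromosomes 2, 6, 9 and 10. Within classes of Cr-DJ reads, the unlisted and overlapped shares were 14.4% (12.1 to 17.2%) and 7.63% (5.37 to 10.8%) at 10 to 14 reads. At 15 to 19 reads they were 7.42% (4.90 to 11.1%) and 5.75% (3.15 to 10.3%), and at 20 or more reads 11.7% (8.90 to 15.4%) and 7.62% (5.17 to 11.1%). The intervals overlapped in the upper classes, so the gap between the groups is clear of counting error in the lowest class alone.

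The stretch just outside H3K27me3 peaks showed the same order. A further 213 unlisted positions (15.2%, 13.4 to 17.2%) lay 1 to 1000 bp outside a peak, and 86 overlapped positions did (9.90%, 8.08 to 12.1%). The lower quartile of the distance to the nearest peak was 655 bp for unlisted and 2143 bp for overlapped positions, and the medians were 5632 bp for unlisted and 8273 bp for overlapped positions. The distance to H3K9me2 went the other way, with medians of 16001 bp for unlisted and 12054 bp for overlapped positions. No unlisted position lay in both marks, and 1225 (87.4%) lay in neither.

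**Figure D4:**
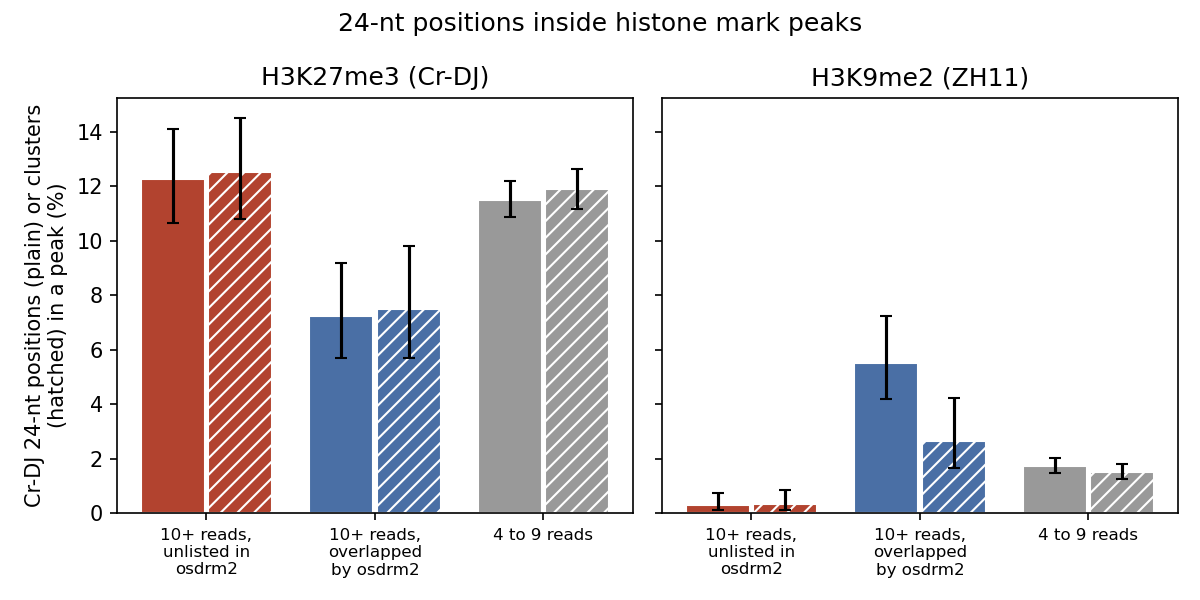
Percent of Cr-DJ 24-nt positions (plain bars) and of their clusters (hatched bars) that meet a peak of H3K27me3 in Cr-DJ or of H3K9me2 in ZH11, with Wilson 95% intervals, for abundant positions unlisted in osdrm2, abundant positions overlapped by osdrm2 and positions of 4 to 9 reads. Unlisted positions stand at 12.3% and 0.286%, overlapped ones at 7.25% and 5.52%, and those of 4 to 9 reads at 11.5% and 1.73%.

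Weaker Cr-DJ positions, which the minimum of 10 reads left out, gave the same order for both marks. Among positions of 4 to 9 reads, 6717 of 8973 (74.9%) were unlisted in osdrm2. Of these, 57 (0.849%, 0.656 to 1.10%) met an H3K9me2 peak, and of the 2256 overlapped ones 98 did (4.34%, 3.58 to 5.27%). H3K27me3 peaks held 836 of the unlisted weak positions (12.4%, 11.7 to 13.3%) and 197 of the overlapped ones (8.73%, 7.64 to 9.97%). Positions of the mirrored kind, with at least 10 reads in osdrm2 and unlisted in Cr-DJ, met H3K9me2 in 66 of 1181 cases (5.59%, 4.42 to 7.05%) and H3K27me3 in 87 (7.37%, 6.01 to 9.0%). Counted by positions, they thus stood near the overlapped ones in both marks. Counted by clusters, this did not hold for H3K9me2. Its peaks met 65 of 1124 mirrored clusters (5.78%, 4.56 to 7.30%) and 17 of 640 overlapped clusters (2.66%, 1.67 to 4.21%). For H3K27me3 the cluster shares were 7.3% mirrored and 7.50% overlapped.

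The unlisted positions in H3K27me3 peaks were spread over 150 peaks, 133 of which held 1 such position and none more than 4. These peaks were long, with a median of 3037 bp (quartiles 1544 and 5155 bp) for peaks holding unlisted positions, 3292 bp for the 47 peaks holding overlapped ones and 1541 bp for all 13385 peaks. A longer peak has more room for a position. The median fold enrichment was 3.67 in peaks holding unlisted positions, 3.46 in those holding overlapped ones and 4.01 in all. Inside the peaks, 55 of 172 unlisted positions (32.0%) lay in the 10% of the peak length at either end and 30 (17.4%) in its middle 20%. For overlapped positions these were 15 (23.8%) and 8 (12.7%) of 63. The median distance from the peak edge was 626.5 bp for unlisted and 604.5 bp for overlapped positions.

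The strongest unlisted positions in H3K27me3 peaks had fewer reads than the leading clusters. A position on chromosome 7 from 8886192 to 8886215 had 85 Cr-DJ reads and lay 1017 bp inside a peak of 2657 bp (3.18-fold). On chromosome 5 from 25571111 to 25571134, 78 reads lay 1435 bp inside a peak of 3656 bp (4.30-fold), and on chromosome 1 from 10488774 to 10488797, 75 reads lay 2350 bp inside a peak of 4874 bp (2.98-fold). All 3 sat well inside their peaks. A position on chromosome 5 from 19954489 with 54 reads, by contrast, ended 1 bp before the edge of its peak. The next ones had 51 reads on chromosome 5 from 5188189, 49 on chromosome 2 from 21649273, 47 on chromosome 1 from 8394076 and 47 on chromosome 9 from 990019. The last of the 10 were those with 41 reads on chromosome 1 from 611226, which belongs to one of the 12 leading clusters, and with 40 reads on chromosome 3 from 17394420. Among the other leading positions, that on chromosome 5 from 21554092 (201 reads) stopped 8 bp short of an H3K27me3 peak and that on chromosome 6 from 2743378 (129 reads) lay 242 bp from one. The 2 leading positions on chromosome 1 were 13414 and 13415 bp from the nearest one. The median of reads was 13 for unlisted positions in H3K27me3 peaks and 14 for those outside both marks.

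Along the genome the unlisted positions were densest on chromosomes 1 to 3 and sparsest on 11 and 12. Chromosome 1 held 203 of them (14.5%), chromosome 3 held 199 and chromosome 2 held 169, while chromosome 12 held 57 and chromosome 11 held 54. Per Mb this was 5.47 on chromosome 3, 4.70 on chromosome 2 and 4.69 on chromosome 1, against 2.07 on chromosome 12 and 1.86 on chromosome 11. Overlapped positions were more even between whole chromosomes, with 1.55 per Mb on chromosome 4 as the lowest and 3.40 on chromosome 7 as the highest value. The unlisted share of abundant positions therefore varied between 75.1% on chromosome 3 (199 of 265, 69.6 to 79.9%) and 47.8% on chromosome 11 (54 of 113, 38.8 to 56.9%). It was 70.0% on chromosome 4, 69.3% on chromosome 1, 65.8% on chromosome 2, 62.9% on chromosome 6 and 59.4% on chromosome 9. The other chromosomes lay at 55.3% (chromosome 10), 54.2% (8), 54.0% (5), 53.0% (7) and 48.3% (12), and neighbours in this order did not differ beyond their intervals. Both abundant positions on Sy were unlisted.

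Unlisted positions were fewer in the middle of the chromosomes than near the ends. Chromosome length was taken as the largest coordinate in the files, and centromere positions were not used here. The outer 20% of length at both ends held 49.96% of unlisted positions (699 of 1399, 47.4 to 52.6%) and 41.9% of overlapped ones (364 of 869, 38.7 to 45.2%). The middle 20% held 12.7% of unlisted (11.01 to 14.5%) and 17.5% of overlapped positions (15.1 to 20.2%). The 8964 Cr-DJ positions of 4 to 9 reads lay between the groups, with 46.8% in the outer parts (45.8 to 47.8%, overlapping the unlisted interval) and 15.2% in the middle (14.5 to 16.0%). In steps of 5% of chromosome length, pooled over chromosomes, the fewest unlisted positions lay at 40 to 45% (26 positions) and the most at 85 to 90% (147 positions). The highest step takes in 2 of the densest stretches of 1 Mb. They start at 37000001 on chromosome 1 (19 unlisted positions) and at 31000001 on chromosome 3 (13 unlisted positions). Steps were not compared chromosome by chromosome.

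**Figure D5:**
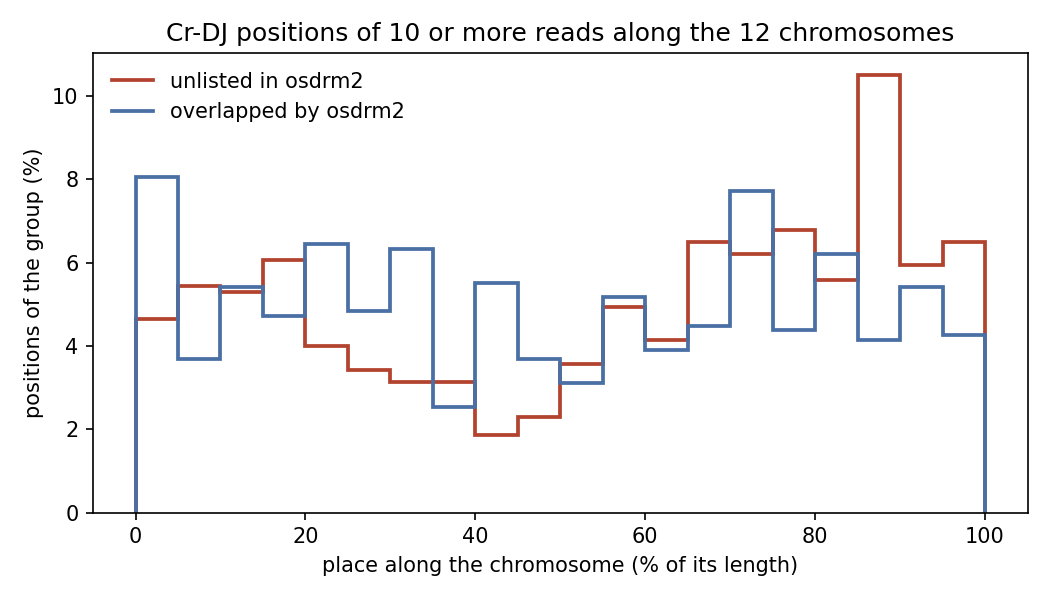
Percent of unlisted and of overlapped abundant Cr-DJ positions (vertical axis) in steps of 5% of chromosome length (horizontal axis), pooled over the 12 numbered chromosomes. Unlisted positions are fewest at 40 to 45% (1.86%) and most at 85 to 90% (10.5%), where 4.14% of overlapped positions lie.

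The regional cover by H3K9me2 followed the same line. Over 368 full bins of 1 Mb the median H3K9me2 cover was 7.47%, and the bins around unlisted positions had a median of 6.34% and those around overlapped ones 7.20%. The 92 bins with the least H3K9me2 (1.78 to 5.73% covered) held 39.5% of unlisted positions (37.0 to 42.1%) and 26.2% of overlapped ones (23.4 to 29.3%). The 92 bins with the most (9.76 to 17.1%) held 11.5% of unlisted (9.93 to 13.3%) and 20.6% of overlapped positions (18.0 to 23.4%). Positions of 4 to 9 reads lay between the groups in both, with 33.1% in the bins of least and 16.6% in those of most H3K9me2. H3K27me3 cover of the bins hardly separated the groups, at medians of 7.90% around unlisted and 8.13% around overlapped positions. The difference in H3K27me3 was thus found at the scale of peaks and their flanks and not at that of megabases.

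On the scale of megabases the unlisted positions gathered in some bins and left long stretches empty. The fullest bin, on chromosome 1 from 37000001 to 38000000, held 19 unlisted positions in 12 clusters, among them the leading cluster, and 6 overlapped positions, with 3.65% of it under H3K9me2. The next bins had 14 unlisted positions on chromosome 1 from 7000001 and on chromosome 2 from 25000001, 13 on chromosome 3 from 31000001 and 12 on chromosome 1 from 32000001, with at most 1 overlapped position each. The median bin held 3 unlisted positions and 45 of 368 bins held none. Overlapped positions, which are fewer, were also uneven at this scale. Their median bin held 2, their fullest bin held 39 and 88 of 368 bins held none. Gathering in bins was thus not particular to the unlisted positions. The longest stretches without an unlisted position ran on chromosome 12 from 10848144 to 15759386 (4.91 Mb), on chromosome 4 from 7244398 to 11593768 (4.35 Mb) and on chromosome 12 from 4991663 to 8769536 (3.78 Mb). They held 2, 3 and 7 overlapped positions, and H3K9me2 covered 9.26, 11.4 and 11.3% of them.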

How the data were processed

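The authors deposited 2 lists of small RNA alignments, 1 per genotype, with 1 alignment per line and no header. For each position, identical lines of these deposited lists were added up here to a read count. All lines are on the plus strand. How reads with several positions were treated, the aligner and the genome build are not given in the sources used here; Bowtie and Bowtie2 (2.1.0) stand among the tools in the submitters' processing notes without a role. Peaks were called with MACS 1.4.2 on 1 library per mark without a control at a p-value limit of 1e-05, per the file headers. Each peak carries a read count, a MACS score derived from its p-value and a fold over the surrounding signal, all deposited by the authors. The authors' gene expression table of osddm1a/1b was not used, since it holds no coordinates.

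Positions overlapped from 1 bp on. Clusters joined unlisted positions at most 500 bp apart, and windows of 10 kb were centred on clusters. Calculations used Python 3.11.15 and SciPy 1.17.1, and overlap, clustering and peak counts were tested on simulated positions with known answers. No significance test was made, because there was 1 library per genotype and mark. The regions named are the 12 clusters and 10 positions with the most Cr-DJ reads and up to 10 positions per mark; the locus on chromosome 12, the densest bins and the longest empty stretches were added after their values were seen. The members, groups and limits were chosen with earlier results of these data known. Alternatives were other read minimums, overlaps, gaps, windows and peak limits.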

Additional observations from a re-analysis of the deposited data

How the results depend on the processing

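Of 36 alternative settings, 23 left the value within 1.5 times (counts) or within its interval (shares) and 13 did not; 2 of them, without chromosome 7, were chosen after seeing the data. The number of unlisted positions followed the read minimum, with 5052 (50377 reads) at 5 reads and 383 (14503 reads) at 20, against 1401 (27706 reads). Without an osdrm2 alignment within 5000 and 10000 bp it was 808 and 542, against 1217 within 1 kb. The osdrm2 part of the scaled reads was 2.63% in windows of 1 kb and 13.6% when scaled to positions of at least 10 reads, against 10.6%. The share of unlisted positions in H3K9me2 peaks was 2.86% within 1000 bp of a peak (overlapped 10.7%), 0% from 20 reads on (overlapped 8.25%) and 0.0822% for positions without osdrm2 within 1000 bp (overlapped 4.84%). For H3K27me3 it was 10.6% in peaks with a score of at least 100 (overlapped 6.21%) and 27.5% within 1000 bp of a peak (overlapped 17.1%). In all alternatives run, unlisted positions stayed below overlapped ones for H3K9me2 and above them for H3K27me3. No paired analysis was possible because each small RNA and mark group has 1 library. Neither list holds positions under 4 reads, so a position with up to 3 reads cannot be told from one with none.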
